A study of Homo sapiens with 4 samples.

Results

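The genes described here handle zinc in the cell. They are 9 of the 46427 genes with values in each library: the metallothionein genes MT1E, MT1F, MT1G, MT1M, MT1X and MT2A, the gene of the zinc sensor MTF1, and the genes of the zinc transporters SLC30A1 and SLC39A14. They were chosen by name, as members of 1 pathway, and all 9 were found. RNA was sequenced from Huh7 and HepG2, established human liver tumour cell lines that the labels call hepatocellular carcinoma. Each line was exposed for 5 h to 20 nM of siRNA and harvested 48 h later. The siRNA was either a negative control (NC-siRNA, genotype given as wild type) or targeted COP1 (COP1-siRNA, genotype given as COP1 knockdown). COP1 is a ubiquitin ligase, an enzyme that marks other proteins for breakdown, and the study asked which genes change when it is depleted. There was 1 library per line and siRNA, 4 in all, with the same batch label, so that no difference within a line has a replicate check.

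Metallothioneins are small proteins rich in cysteine that bind zinc and copper, and they are made in large amounts in the liver. When free zinc rises, the transcription factor MTF1 binds metal response elements in the promoters of the metallothionein genes and of SLC30A1 and switches them on. SLC30A1 (ZnT1) moves zinc out of the cell through the plasma membrane, and SLC39A14 (ZIP14) brings zinc, iron and manganese in.

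The 6 metallothionein genes lie close together on chromosome 16 of GRCh38. Their order along the chromosome is MT2A (56608584 to 56609497), MT1E (56625781 to 56627112), MT1M (56632659 to 56633981), MT1F (56657943 to 56659303), MT1G (56666730 to 56668065) and MT1X (56682470 to 56684196). MT1G lies on the minus strand and the others on the plus strand. The coding sequence of each is divided over 3 exons in GENCODE 29. It holds 61 codons before the stop, or 62 in MT1G, of which 20 are cysteine codons. The following 4 coding sequences, 5′ to 3′ from the start codon to the stop codon, belong to the most abundant member (MT2A), the member with the largest difference between the siRNAs (MT1E), the member at or near 0 in HepG2 (MT1M) and the member that was higher in HepG2 (MT1G). Capitals mark the in-frame cysteine codons.
MT2A: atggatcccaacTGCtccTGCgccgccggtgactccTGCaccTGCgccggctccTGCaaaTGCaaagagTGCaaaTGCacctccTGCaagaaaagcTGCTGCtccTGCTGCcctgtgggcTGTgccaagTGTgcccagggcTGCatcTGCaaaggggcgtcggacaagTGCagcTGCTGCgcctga
MT1E: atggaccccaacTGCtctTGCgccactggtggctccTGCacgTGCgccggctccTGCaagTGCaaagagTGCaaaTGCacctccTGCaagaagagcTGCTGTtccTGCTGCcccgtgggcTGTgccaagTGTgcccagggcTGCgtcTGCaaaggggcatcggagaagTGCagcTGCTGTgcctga
MT1M: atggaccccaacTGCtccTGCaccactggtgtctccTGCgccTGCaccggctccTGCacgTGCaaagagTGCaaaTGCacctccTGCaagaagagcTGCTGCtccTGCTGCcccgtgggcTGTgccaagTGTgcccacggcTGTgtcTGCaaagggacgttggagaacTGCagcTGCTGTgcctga
MT1G: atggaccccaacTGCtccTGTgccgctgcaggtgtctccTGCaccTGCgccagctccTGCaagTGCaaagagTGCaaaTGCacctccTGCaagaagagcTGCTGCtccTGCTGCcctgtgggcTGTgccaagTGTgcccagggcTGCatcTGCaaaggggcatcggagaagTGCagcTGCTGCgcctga

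The coding sequences were identical at 88.7% (MT1F and MT1X) to 93.7% (MT1G and MT2A) of aligned bases. Reads from so similar genes can be hard to assign. Of the stretches of 50 bases in the transcript, 45.1% also occurred in a transcript of another gene for MT1X and 20.2% for MT1G. For MT1M, MT1E, MT2A and MT1F the shares were 7.05%, 5.34%, 4.88% and 3.59%. They refer to 1 coding transcript per gene, chosen for the length of its coding sequence and then for its own length. It had 450 bases for MT1X and 405 for MT1G, but 829, 704, 786 and 690 for MT1M, MT1E, MT2A and MT1F. The shares in other transcripts were not computed. Within the coding sequence the shares were higher: 80.3% for MT1X, 43.6% for MT1G, 26.3% for MT2A, 21.9% for MT1E, 16.8% for MT1F and 10.9% for MT1M. The level of MT1X, and to a lesser degree that of MT1G, is therefore uncertain. The sum over the 6 genes is given below beside the single genes.

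The promoters of MT2A, MT1X and SLC30A1 are shown because MTF1 acts through them. RefSeq promoters (GRCh38.p14, 250 bases before to 50 bases after the start site) were matched for 4 of the 9 genes, these and MTF1. Both strands were searched for the core of the metal response element, spelled TGCACNC or TGCGCNC. Matches, none of which overlapped another, are in capitals. The MT2A promoter is chr16:56608334-56608633, plus strand, that of MT1X is chr16:56682220-56682519, plus strand, and that of SLC30A1 is chr1:211579112-211579411, minus strand.
MT2A promoter: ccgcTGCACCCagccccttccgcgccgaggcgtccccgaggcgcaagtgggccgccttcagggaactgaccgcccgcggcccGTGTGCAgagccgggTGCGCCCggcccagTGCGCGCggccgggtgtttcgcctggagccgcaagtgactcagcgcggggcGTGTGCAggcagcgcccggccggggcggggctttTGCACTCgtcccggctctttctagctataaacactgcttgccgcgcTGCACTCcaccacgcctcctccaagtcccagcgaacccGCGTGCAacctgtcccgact
MT1X promoter: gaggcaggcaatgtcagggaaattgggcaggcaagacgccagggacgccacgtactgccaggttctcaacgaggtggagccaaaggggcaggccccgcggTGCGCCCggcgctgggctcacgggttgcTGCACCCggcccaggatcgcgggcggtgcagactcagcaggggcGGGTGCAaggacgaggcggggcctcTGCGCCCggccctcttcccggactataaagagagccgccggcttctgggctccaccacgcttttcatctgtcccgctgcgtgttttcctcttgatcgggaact
SLC30A1 promoter: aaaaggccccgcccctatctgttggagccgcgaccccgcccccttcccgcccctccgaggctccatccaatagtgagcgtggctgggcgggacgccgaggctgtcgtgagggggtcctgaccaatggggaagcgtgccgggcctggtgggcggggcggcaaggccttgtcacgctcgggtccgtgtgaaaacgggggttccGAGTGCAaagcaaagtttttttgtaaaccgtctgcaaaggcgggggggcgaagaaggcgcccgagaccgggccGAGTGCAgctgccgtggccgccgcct

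MT2A held 8 matches, MT1X 4, SLC30A1 2 and MTF1 0. At least 1 match was present in 29.6% of the 35116 RefSeq promoters of the same length. A number as high as in SLC30A1 was found in 8.60% of promoters, as high as in MT1X in 0.601% and as high as in MT2A in 0.0199%. A match is a stretch of letters, not a measured binding site. In MT2A the matches ran from 246 bases before to 31 bases after the start site, and in MT1X all 4 lay between 150 and 53 bases before it.

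**Figure D1:**
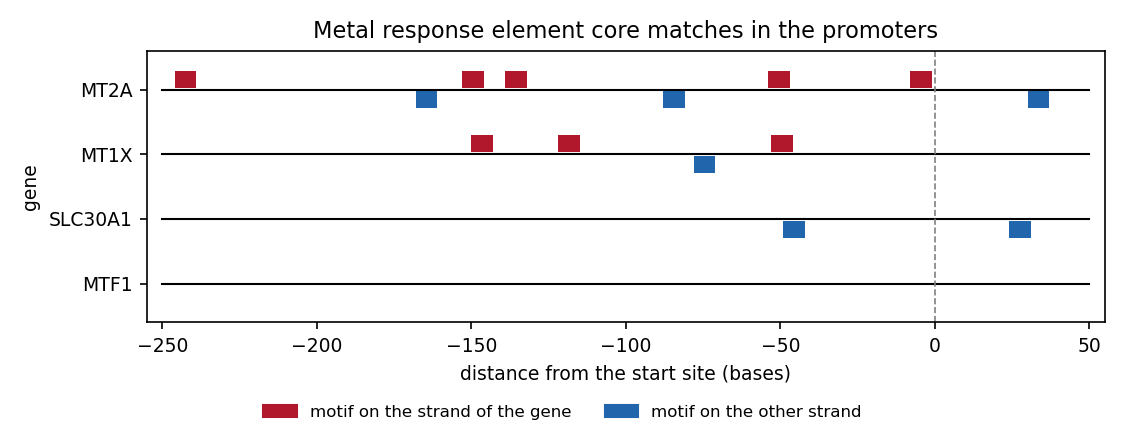
Metal response element core matches in the 4 promoters. The x axis is the distance from the start site in bases, each line is a promoter, red boxes above the line are matches on the strand of the gene and blue boxes below it are matches on the other strand. MT2A has 8 boxes, MT1X 4, SLC30A1 2 and MTF1 none.

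RNA levels are given as TPM, transcript abundances that are scaled to gene length and to the same total in each library, so that genes can be compared with each other. All 9 liver markers examined, among them ALB and AFP, were at 1 TPM or above in all 4 libraries. Their summed level was 20309 and 18181 TPM in Huh7 and 2672 and 3083 TPM in HepG2 with NC-siRNA and COP1-siRNA. Of 9 markers of leukocytes, fibroblasts and endothelium, 2 reached 1 TPM in each library, and the sum ranged from 18.2 to 64.0 TPM. CD68, of the leukocyte list, was at 58.2 and 56.4 TPM in Huh7 and 15.6 and 17.3 TPM in HepG2. The other was PECAM1 in Huh7 (5.08 and 7.36 TPM) and COL1A1 in HepG2 (2.33 and 2.47 TPM). PTPRC, CD3E and DCN were listed at 0 throughout. COP1 fell past 2-fold in Huh7, from 19.7 to 6.18 TPM. In HepG2 it was at 26.9 and 16.1 TPM, less than 2-fold apart. The COP1-siRNA library was 1.13 times as deep as the NC-siRNA library in Huh7 and 1.27 times in HepG2, from the ratio of coverage to FPKM. The number of reads was not in the tables.

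MT2A was the most abundant of the 9 in every library. It stood at 404 TPM in Huh7 with NC-siRNA, 555 TPM in Huh7 with COP1-siRNA, 196 TPM in HepG2 with NC-siRNA and 240 TPM in HepG2 with COP1-siRNA. Among the genes at 1 TPM or more, only 2.87%, 1.78%, 5.38% and 4.29% were higher in these libraries. All other members were below MT2A by a wide margin in HepG2, where SLC39A14 came next at 52.8 and 58.9 TPM.

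For MT1E, the Huh7 libraries gave 141 TPM under NC-siRNA and 227 TPM under COP1-siRNA, and the HepG2 libraries 17.6 and 25.5 TPM. Both Huh7 libraries thus lay far above both HepG2 libraries, and in each line the COP1-siRNA library was the higher. MT1F showed the same order, with 63.0 and 87.0 TPM in Huh7 and 4.87 and 6.38 TPM in HepG2. MT1X was at 93.9 and 112 TPM in Huh7 and at 49.7 and 45.3 TPM in HepG2. Here the COP1-siRNA library was the higher in Huh7 and the lower in HepG2.

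MT1M was a low member, at 10.7 and 11.0 TPM in Huh7. HepG2 gave 0.359 TPM under NC-siRNA, and the gene was listed at 0 there under COP1-siRNA. Its mean coverage per base was 28.5 and 34.7 in Huh7 and 0.894 and 0 in HepG2, so that the HepG2 values rest on very few reads. MT1G had the opposite pattern, with 2.06 and 2.38 TPM in Huh7 and 8.02 and 8.87 TPM in HepG2. It was the lowest member in Huh7 and stood above MT1F and MT1M in HepG2.

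MTF1, the zinc sensor (chromosome 1, minus strand, 37809570 to 37859614), was low in all libraries, at 7.60 and 7.77 TPM in Huh7 and 4.71 and 4.68 TPM in HepG2. SLC30A1, the zinc exporter (chromosome 1, minus strand, 211571568 to 211579161), was at 37.1 and 31.5 TPM in Huh7 and 11.0 and 11.2 TPM in HepG2. SLC39A14, the importer, was at 185 and 184 TPM in Huh7, above its HepG2 levels given before. In each of these genes both Huh7 libraries lay above both HepG2 libraries. How many of all genes separate in this way was not counted. Line differences were common, with 42.6% of all compared genes past 2-fold between the lines with NC-siRNA.

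The order of the levels was the same in both HepG2 libraries: MT2A, SLC39A14, MT1X, MT1E, SLC30A1, MT1G, MT1F, MTF1 and MT1M. In Huh7 it was MT2A, SLC39A14, MT1E, MT1X, MT1F, SLC30A1, MT1M, MTF1 and MT1G with NC-siRNA, and MT1E and SLC39A14 changed places with COP1-siRNA. No replicate gives the spread of a level, so neighbours in this order, such as SLC39A14 and MT1X at 52.8 and 49.7 TPM in HepG2 or MT1F and MTF1 at 4.87 and 4.71 TPM, could not be told apart by a test.

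**Figure D2:**
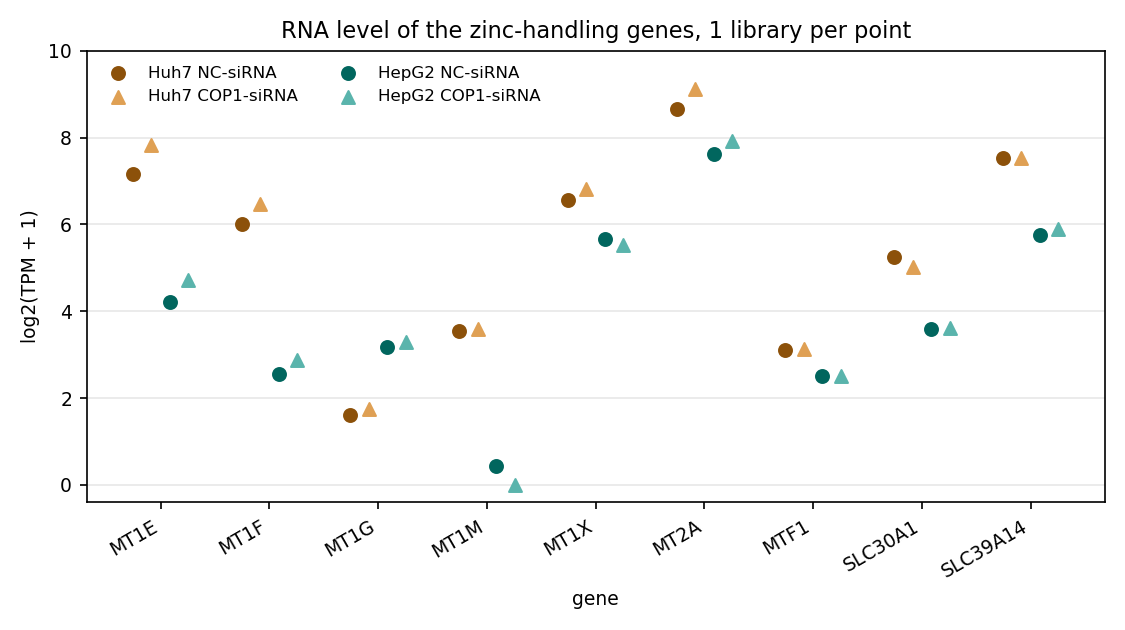
RNA levels of the 9 genes. The y axis is log2(TPM + 1), each point is 1 library, brown marks Huh7 and green HepG2, circles mark NC-siRNA and triangles COP1-siRNA. MT1E, MT1F and MT1M are far higher in Huh7 than in HepG2, MT1G is higher in HepG2, and the triangles of MT1E, MT1F and MT2A lie above the circles in both lines.

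The first comparison asked whether these genes differed between COP1-siRNA and NC-siRNA in each line. Differences are given as log2 of (TPM + 1) with COP1-siRNA over (TPM + 1) with NC-siRNA, a scale that understates differences of low genes. A gene was compared where it reached 1 TPM in either library, and a difference of 2-fold was called. This is the fold threshold of the study, whose criterion of a p-value was not applied to 1 library per condition. None of the 9 members passed 2-fold in Huh7, where 1.08% of the 13000 genes compared did, and none of the 8 members compared passed it in HepG2, where 0.934% of 14456 genes did. MT1M was not compared in HepG2.

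Below that threshold, the metallothioneins were mostly higher with COP1-siRNA. The largest difference was that of MT1E, 0.68 in Huh7 and 0.51 in HepG2, which 1.98% and 3.58% of all compared genes exceeded. In Huh7, MT1E was the 1 member at least 1.5-fold higher, against 2.80% of compared genes. In HepG2 none was, against 2.56%.

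MT1F, a further zinc-binding isoform, differed by 0.46 in Huh7 and 0.33 in HepG2. MT2A, the main isoform of these cells, differed by 0.46 and 0.29. MT1G differed by 0.14 and 0.13. These 3 genes and MT1E were higher with COP1-siRNA in both lines, and the value in Huh7 was at or above that in HepG2 for each. MT1X differed by 0.25 in Huh7 and −0.13 in HepG2, and MT1M by 0.04 in Huh7.

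The sensor and the transporters showed smaller differences than MT1E, MT1F and MT2A in both lines. The difference of SLC30A1 in Huh7 and that of SLC39A14 in HepG2 were larger in size than those of MT1G. MTF1 differed by 0.03 in Huh7 and −0.01 in HepG2, and the sign in HepG2 turned under median-of-ratios scaling. SLC30A1, which MTF1 is known to induce together with the metallothioneins, differed by −0.23 in Huh7 and 0.02 in HepG2. SLC39A14 (chromosome 8, plus strand, 22367278 to 22434129) differed by −0.01 in Huh7, a sign that turned under median-of-ratios scaling and with FPKM, and by 0.16 in HepG2.

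By any amount, 7 of 9 members were higher with COP1-siRNA in Huh7, against 49.9% of all compared genes, and 6 of 8 in HepG2, against 48.3%. The median of the members was 0.14 in Huh7 and 0.14 in HepG2, beside −0.001 and −0.008 over all genes compared. The median of the metallothioneins alone was 0.35 in Huh7 (6 genes) and 0.29 in HepG2 (5 genes).

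**Figure D3:**
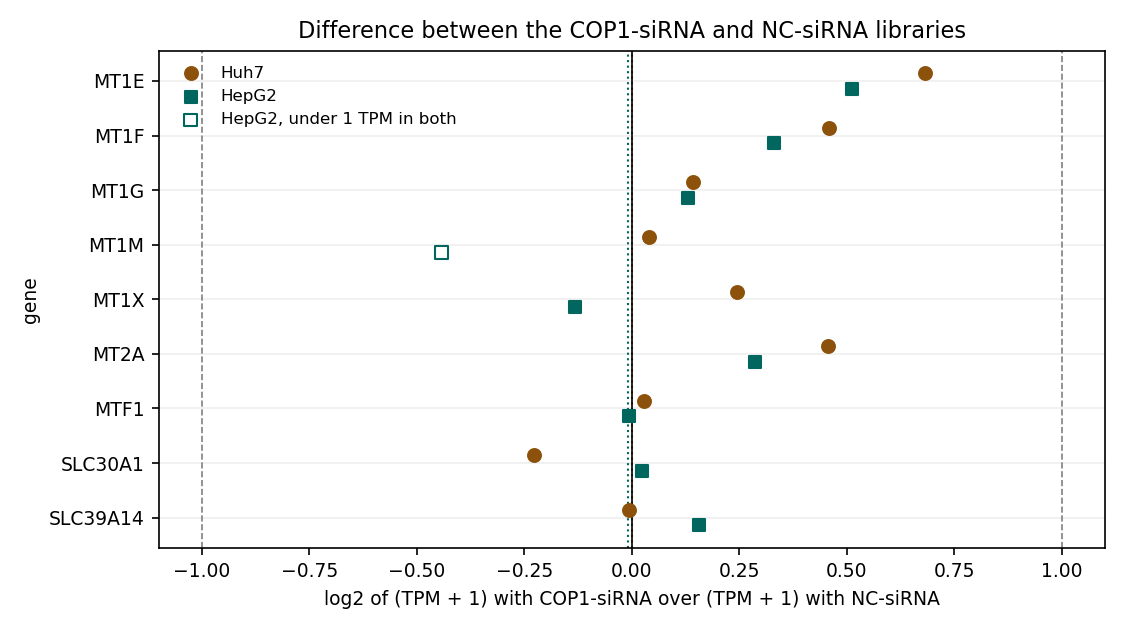
Differences between the siRNAs. The x axis is log2 of (TPM + 1) with COP1-siRNA over (TPM + 1) with NC-siRNA, brown circles are Huh7 and green squares HepG2, the open square is MT1M, which was under 1 TPM in both HepG2 libraries, dashed lines mark 2-fold and dotted lines the median of all genes. MT1E reaches 0.68 and 0.51, no point passes 2-fold, and MT1X lies on opposite sides of 0 in the lines.

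A difference shared by both lines was tested with limma, in a fit of line and siRNA over the 4 libraries and 15486 genes. Here the lines take the place of replicates, so the test says nothing of a single line. It sets the mean difference against a moderated variance. That variance combines the variation of the gene between the lines (1 residual degree of freedom) with a prior from all genes (3.38 degrees of freedom). The SE of a gene therefore follows its own variation between the lines only in part. With Benjamini-Hochberg adjustment, 0 of the 9 members and 0% of all genes passed an adjusted p of 0.05. At an unadjusted p under 0.05 there were 3 members, MT1E, MT1F and MT2A, against 9.34% of all genes (1446 genes).

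The mean difference of MT1E in the limma fit was 0.60 on the log2 scale (SE 0.108, adjusted p = 0.387). That of MT1F was 0.39 (SE 0.105, adjusted p = 0.434) and that of MT2A 0.37 (SE 0.108, adjusted p = 0.451). All 3 were higher with COP1-siRNA in 2 of 2 lines, and none passed the correction. For the other 6 members the limma adjusted p ranged from 0.695 (MT1G) to 0.979 (MTF1). COP1 itself did not pass either, with a mean of −1.12 (SE 0.220, adjusted p = 0.400) from values of −1.53 in Huh7 and −0.71 in HepG2.

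Summed over the 6 metallothionein genes, the level went from 715 to 993 TPM in Huh7, 1.39 times as much and 0.47 on the log2 scale. In HepG2 it went from 277 to 326 TPM, 1.18 times as much and 0.23 on the log2 scale. The sum depends less than a single gene on how reads were divided among the 6 genes, but their transcripts differ in length and share sequence with genes outside the sum. With every MT1 and MT2A gene or pseudogene of the tables counted, 15 in all, it was 721 and 1006 TPM in Huh7 beside 278 and 328 TPM in HepG2.

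Few genes carried the difference of the sum. In Huh7, MT2A gave 151 TPM of it (54.0%), MT1E 85.9 TPM (30.8%), MT1F 24.0 TPM (8.61%) and MT1X 17.6 TPM (6.32%). In HepG2, MT2A gave 43.4 TPM (88.8%) and MT1E 7.90 TPM (16.2%), while MT1X differed by −4.44 TPM, a part of −9.08%. MT1E thus had a larger part in Huh7, where it was also more abundant. In bulk RNA, a higher level per cell and more cells with a high level cannot be told apart.

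**Figure D4:**
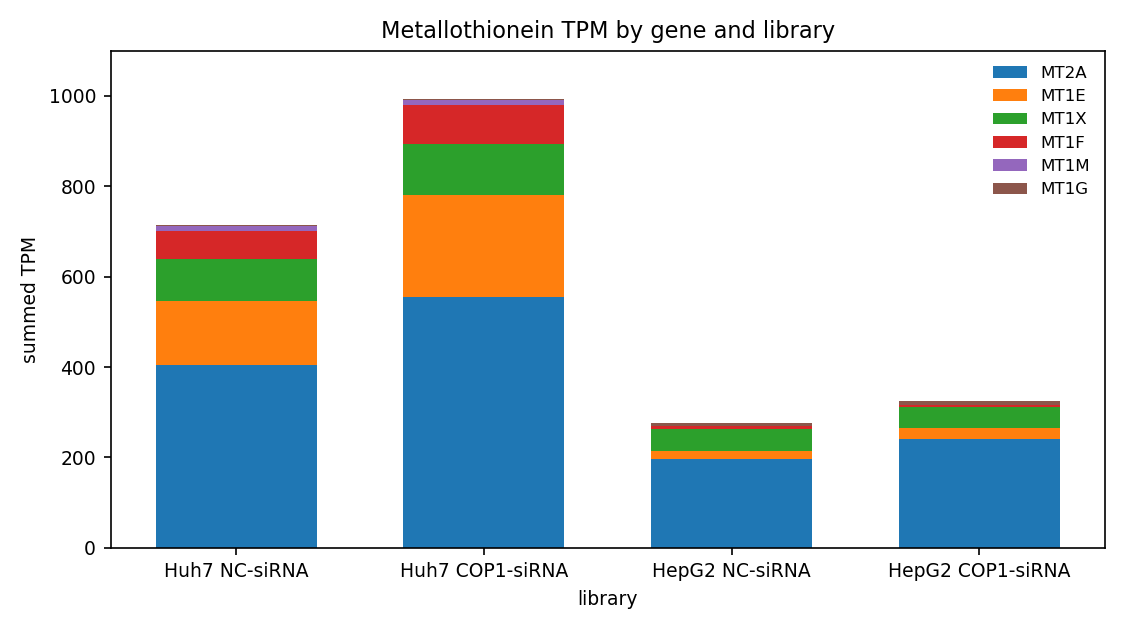
Summed metallothionein level by gene and library. Bars are summed TPM of 1 library each, on an axis that starts at 0, and colours are the 6 genes. The Huh7 bars reach 715 and 993 TPM and the HepG2 bars 277 and 326 TPM, with MT2A the largest part of each.

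The second comparison set HepG2 against Huh7 under each siRNA, given as log2 of HepG2 over Huh7. The 2 siRNAs use separate libraries, so that each repeats the other. With NC-siRNA, 7 of 9 members passed 2-fold, against 42.6% of 15055 genes compared, and 6 of them were higher in Huh7, against 14.7% of genes. With COP1-siRNA, 8 of 9 passed, against 40.1% of 15126 genes, and 7 were higher in Huh7, against 14.0%. MT1M entered these comparisons through its Huh7 level alone, so that it had to differ. Of the 8 members at 1 TPM or more in both lines, 6 passed 2-fold with NC-siRNA, 5 of them higher in Huh7, and 7 passed with COP1-siRNA, 6 of them higher in Huh7. The median of these 8 was −1.35 and −1.35. Over all genes at 1 TPM or more in either library the median was 0.37 and 0.35, towards HepG2. The shares and the median of all genes at 1 TPM or more in both lines were not computed. The values of the 8 thus have no background under the same filter.

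The largest differences were in the MT1 genes. MT1F was 13.0-fold and MT1E 8.03-fold higher in Huh7 than in HepG2 with NC-siRNA, and 13.6-fold and 8.91-fold higher with COP1-siRNA. MT1M was 29.7-fold higher with NC-siRNA, a ratio that rests on the 0.359 TPM of HepG2. No ratio is given with COP1-siRNA, where it was listed at 0 in HepG2 and passed 2-fold on the log2(TPM + 1) scale. MT2A was 2.06-fold and 2.31-fold higher in Huh7 and MT1X 1.89-fold and 2.46-fold, the former value of MT1X being short of 2-fold.

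MT1G went the other way, 3.89-fold higher in HepG2 with NC-siRNA and 3.73-fold with COP1-siRNA. The transporters were higher in Huh7. SLC39A14 was 3.51-fold and 3.12-fold higher there and SLC30A1 3.36-fold and 2.81-fold. MTF1 was 1.62-fold and 1.66-fold higher in Huh7, under the threshold.

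In the limma fit, the siRNAs take the place of replicates. The 8 members at 1 TPM or more in both lines differed between the lines at an adjusted p under 0.05. So did 76.4% of the 15486 genes at 1 TPM or more in any library, a wider filter than that of the 8. MT1M also passed, but as it entered the fit through Huh7 alone no p is given for it. MT1F differed by −3.51 (SE 0.105, adjusted p = 8.10e-05) and MT1E by −3.02 (SE 0.108, adjusted p = 0.000107). MT1G differed by 1.55 (SE 0.10, adjusted p = 0.000341). The limma values were −1.71 for SLC39A14 (adjusted p = 0.000321), −1.54 for SLC30A1 (adjusted p = 0.000509), −1.12 for MT2A (adjusted p = 0.000981) and −1.09 for MT1X (adjusted p = 0.00204). MTF1 had the smallest, −0.61 (adjusted p = 0.00515). As a pair of libraries of 1 line stands behind each side, the test concerns these cultures. Without the minimum of 1 TPM, over 46427 genes, 0 of the 9 passed.

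**Figure D5:**
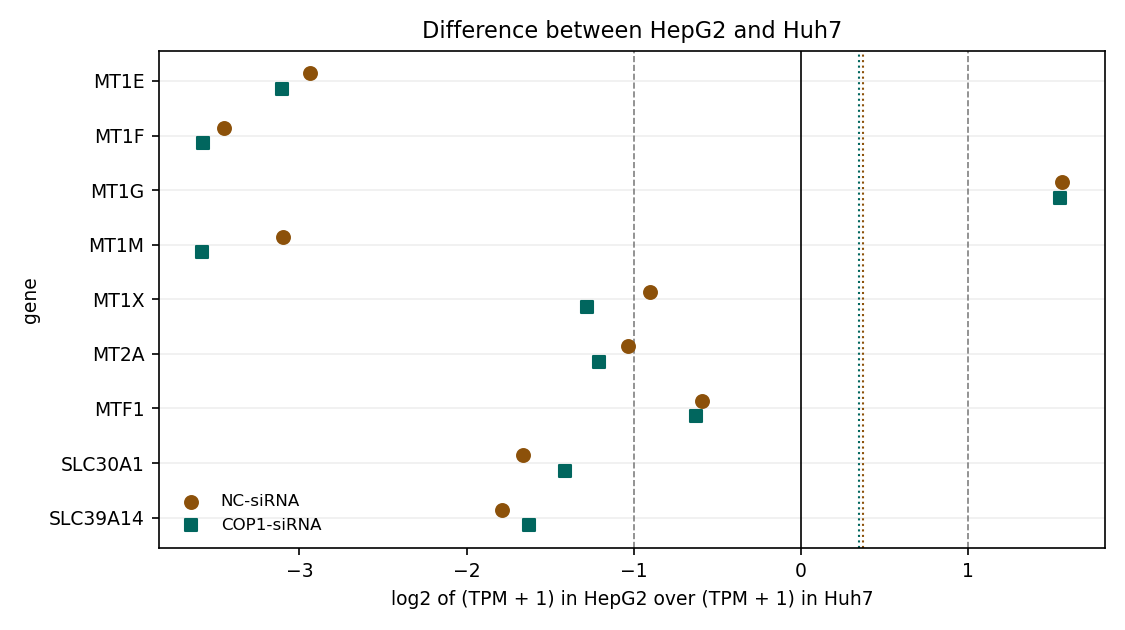
Differences between the lines. The x axis is log2 of (TPM + 1) in HepG2 over (TPM + 1) in Huh7, brown circles are NC-siRNA and green squares COP1-siRNA, dashed lines mark 2-fold and dotted lines the median of all genes. With either siRNA, 8 of the 9 genes lie to the left, MT1M among them by its Huh7 level alone, and MT1G lies to the right.

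The make-up of the metallothionein RNA also differed between the lines. MT2A was 56.5% and 55.8% of the sum in Huh7 and 70.9% and 73.6% in HepG2. MT1E was 19.7% and 22.8% in Huh7 and 6.35% and 7.82% in HepG2, and MT1F was 8.82% and 8.76% against 1.76% and 1.96%. The share of MT1G was 0.289% and 0.240% in Huh7 and 2.89% and 2.72% in HepG2. For each of these 4 genes the shares of both siRNAs in a line lay closer to each other than to those of the other line. MT1X, at 13.1% and 11.2% in Huh7 and 18.0% and 13.9% in HepG2, was less clearly separated. The sum itself was 2.58-fold higher in Huh7 with NC-siRNA and 3.05-fold with COP1-siRNA.

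The liver markers also differed between the libraries. Their summed level was higher in both Huh7 libraries, and they differed between the siRNAs in opposite directions: 8 of 9 were lower with COP1-siRNA in Huh7 (median −0.11) and 9 of 9 higher in HepG2 (median 0.40), where 48.3% of all compared genes were higher. FGB, the fibrinogen beta chain gene, passed 2-fold in HepG2, from 6.97 to 15.5 TPM and 1.05 on the log2 scale. Their part in the metallothionein values was not tested. The metallothionein sum was higher with COP1-siRNA in both lines.

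Of 14 other metallothionein genes and pseudogenes listed for context, the metallothionein-like TESMIN included, 11 were found and 6 were listed at 0 in all libraries. In each line 2 were compared. MT1L, a member of the chromosome 16 cluster, passed 2-fold in Huh7, from 2.61 to 8.72 TPM and 1.43 on the log2 scale, with mean coverage from 6.98 to 27.6. It was listed at 0 in both HepG2 libraries, and its limma adjusted p was 0.619. MT1A, a coding member, was at 3.35 and 3.32 TPM in Huh7 and 0.748 and 1.83 TPM in HepG2, where the plain ratio was 2.45 and the value on the log2 scale 0.70.

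Of the 9 other genes of the SLC30 family, 5 were compared in Huh7 and 7 in HepG2, and none passed 2-fold between the siRNAs. Their median was 0.01 in Huh7 and −0.11 in HepG2. SLC30A9, with the highest mean level over the 4 libraries, was at 45.3 and 29.5 TPM in Huh7 and 81.7 and 49.3 TPM in HepG2. It was lower with COP1-siRNA in both lines, by a limma mean of −0.66 (SE 0.104, adjusted p = 0.387). Between the lines with NC-siRNA, 3 of 7 SLC30 genes compared were 2-fold higher in HepG2 and 1 was 2-fold higher in Huh7. Of the 3, SLC30A3 (0.335 TPM in Huh7 and 5.15 TPM in HepG2) and SLC30A4 (0.0271 and 3.10 TPM) entered through HepG2 alone. SLC30A5, at 32.7 and 70.1 TPM, was above 1 TPM in both lines. Among all 15055 genes compared, 4194 were 2-fold higher in HepG2 and 2215 in Huh7.

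Of the 13 other SLC39 genes, which bring zinc into the cytosol, 10 were compared in Huh7 and 11 in HepG2. None passed 2-fold between the siRNAs, and their median was 0.03 and 0.02. SLC39A1, with the highest mean level, was at 161 and 184 TPM in Huh7 and 111 and 116 TPM in HepG2. Between the lines, 2 of 11 SLC39 genes compared were 2-fold higher in HepG2 with either siRNA and none was 2-fold higher in Huh7. These were SLC39A10 and SLC39A4, named after their values were seen. Among all genes compared, 4194 of 15055 with NC-siRNA and 3937 of 15126 with COP1-siRNA were 2-fold higher in HepG2. In Huh7, 2215 and 2121 were. SLC39A4 was listed at 0 in both Huh7 libraries and stood at 34.8 and 32.2 TPM in HepG2. It thus entered the comparison through HepG2 alone and had to differ.

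Copper also binds to metallothioneins. Of 10 copper-handling genes, 9 were compared in Huh7 and 10 in HepG2, and none passed 2-fold between the siRNAs on the log2(TPM + 1) scale. Their median was −0.08 and −0.15. SLC31A2, a copper transporter named after its values were seen, was at 2.66 and 5.63 TPM in Huh7, a plain ratio of 2.12 and 0.86 on the log2 scale. SOD1, the copper and zinc superoxide dismutase and the most abundant of them, was at 477 and 474 TPM in Huh7 and 1147 and 1140 TPM in HepG2. Of 10 genes of the metal, oxidative and heat stress responses, none passed 2-fold in either line, with medians of −0.14 and 0.00. HSPA1B, a heat shock protein gene with the highest mean level of these over the 4 libraries, was at 163 and 155 TPM in Huh7 and 744 and 535 TPM in HepG2.

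The profile of the summed metallothioneins over the 4 libraries was set beside those of the 11424 genes at 1 TPM or more in every library. Likeness was the root mean square difference of log2(TPM + 1), each profile centred on its own mean. The 5 nearest genes were MICAL2, an actin-oxidising enzyme (0.051), RAB4B, a small GTPase (0.052), the non-coding RNA gene LINC02542 (0.054), LOC102724428 (0.060) and ZNFX1, a helicase-like protein (0.064). MICAL2, for example, was at 12.4 and 17.3 TPM in Huh7 and 4.01 and 5.47 TPM in HepG2. With 4 libraries this is a description, and it says nothing of shared control.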

How the data were processed

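Poly(A) RNA libraries were made with a stranded kit. The submitters' processing notes name FastQC 0.11.7, Trimmomatic 0.38, HISAT2 2.1.0, StringTie 2.1.3b, edgeR and the build GRCh38. The authors deposited 1 gene abundance table per library, with TPM, FPKM and mean coverage per gene. Read counts were not analysed here. The gene name column holds no symbols, so genes were found by NCBI Gene number through a RefSeq GRCh38.p14 gene table, which matched 44698 of 46427 numbers (96.3%).

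TPM was used throughout, as log2(TPM + 1). A gene was compared where it had 1 TPM or more in either library, and 2-fold was called. limma 3.58.1 in R 4.3.3 (lmFit with line and siRNA, eBayes, Benjamini-Hochberg over 15486 genes with 1 TPM or more in any library) left 1 residual degree of freedom per gene. The fit was tested on simulated data. Leaving out a replicate was not possible with 1 library per condition. Transcript and promoter sequences came from GENCODE 29 and RefSeq. Depth was compared through the most frequent ratio of the deposited coverage to FPKM, 5.75 to 7.47 across libraries. Precision is limited by the lack of replicates.

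The members, the gene lists and the tests were chosen with earlier results of these data known. The genes named were the 9 members, COP1, any gene of a context list past 2-fold between the siRNAs in a line or otherwise its gene with the highest mean TPM, and the 5 nearest profiles. Other genes were named after their values were seen. The alternatives were other pseudocounts, minimums, fold thresholds and scalings, FPKM or coverage in place of TPM, and a trend in eBayes. Repeated gene numbers were also kept apart instead of summed.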

Additional observations from a re-analysis of the deposited data

Results flagged for a closer look

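For 5 members the difference between the siRNAs had opposite signs in Huh7 and HepG2, with 1 library on each side, and the difference between the lines was not tested. The Huh7 value minus the HepG2 value was 0.48 on the log2 scale for MT1M, whose HepG2 levels were under 1 TPM, and 0.38 for MT1X, which shares many 50-base stretches with other genes. It was −0.25 for SLC30A1, −0.16 for SLC39A14 and 0.034 for MTF1.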

How the results depend on the processing

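The number of members past 2-fold between the siRNAs was 0 in each line under all settings tried except a 1.5-fold threshold, which gave 1 (MT1E) in Huh7. Between the lines it was 6 to 8 with NC-siRNA and 8 with COP1-siRNA. The 1.5-fold threshold gave 9 with each siRNA. These counts include MT1M, which entered through Huh7 alone. In the limma fit all 9 members differed between the lines, but with no minimum TPM 0 did, among 46427 genes of which 15486 reached 1 TPM. That setting left 239 genes higher and 90 lower in HepG2, against 7749 and 4079. limma on FPKM called 16 genes higher and 43 lower with COP1-siRNA, none of them a member, against 0 on TPM.

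Of 90 siRNA values of members, 86 kept their direction and side of 2-fold, 3 uncalled values turned sign, and MT1M in HepG2 became −2.20 with a pseudocount of 0.1. Of 90 line values 88 did so. Both sets include a setting with repeated gene numbers kept apart. It was bound to leave every member unchanged, as the members had no repeated lines. MT2A with NC-siRNA became −0.94 with FPKM, and MT1X became −1.16 with median-of-ratios scaling, which lowers the median of all genes between the lines from 0.37 to 0.14 with NC-siRNA and from 0.35 to 0.13 with COP1-siRNA. The cause of the other shifts was not tested. The log2 difference of the metallothionein sum stayed in the range of 0.44 to 0.53 for Huh7 and of 0.21 to 0.25 for HepG2.

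Among all genes, COP1-siRNA gave 83 higher and 58 lower ones for Huh7, and 78 and 57 for HepG2. With a pseudocount of 0.1 these became 249 and 141, and 227 and 145, with FPKM 33 and 24, and 21 and 18, and with a minimum of 5 TPM 34 and 42, and 29 and 26.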
